A study of Mus musculus with 12 samples.

Results

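The genes described here encode the ligands, receptors and first signal carriers of the LIF and CNTF branch of the gp130 cytokine family. They were chosen by gene name in the deposited gene table, and all 10 were found among its 32867 genes: Lif, Cntf, Clcf1, Lifr, Cntfr, Osmr, Il6st, Jak2, Stat3 and Socs3. They were followed in 12 bulk RNA-seq samples of mouse retina, 3 for each of 4 groups, as read counts and as FPKM (reads scaled by gene length and by the total counted on genes). The C3H wild-type samples carried neither disease allele, and their labels give postnatal day 13 for 1 of them, day 23 for another and day 29 for the third. Pde6b rd1 retinas (rod phosphodiesterase lost after a viral insertion) were taken at day 13 and Pde6b rd10 retinas (a point mutation in the same enzyme) at day 23. Prph rd2 retinas, in which the outer segment protein peripherin is mutated, were taken at day 29. The labels call each day the peak of photoreceptor death of that model. All mutations were germline and no treatment was given. According to the methods of the study, the C3H, Pde6b rd1 and Prph rd2 mice shared the C3H background and Pde6b rd10 mice were C57Bl6/J, whereas the Prph rd2 labels name C57BL6/J. How many animals each sample came from is not given in the sources used here.

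The samples held between 17049495 and 24755890 counted reads. As a check of the labels, Pde6b stood at 57.1 ± 0.466 FPKM (SD, n = 3) in Pde6b rd1 against 243.3 ± 1.97 in C3H, and Prph2 at 452.9 ± 30.5 in Prph rd2 against 924.1 ± 46.4. As a check of the tissue, 8 rod markers were present in every group and summed to between 12515.2 and 25956.9 CPM (counts scaled to a common library size, by TMM). Xist, an RNA made by female cells, ranged from 0.384 to 0.511 CPM in C3H, from 705.8 to 798.3 in Pde6b rd10, from 1560.1 to 2007.2 in Prph rd2 and from 3673.1 to 3902.4 in Pde6b rd1. Ddx3y, a gene of the Y chromosome, ranged from 76.3 to 85.8 CPM in C3H and was at 0 in Pde6b rd1. It ranged from 55.5 to 70.6 CPM in Pde6b rd10 and from 31.8 to 38.4 in Prph rd2. Every Pde6b rd10 and every Prph rd2 sample therefore held RNA of both sexes, which a lone animal would not give. The groups thus differed in sex composition and in the strain given for Pde6b rd10 and, by the labels, for Prph rd2. Neither can be told apart from the mutation. The models also differed in age, which cannot be told apart from the mutation between models. C3H held only a lone sample for each of their days. In whole retina, fewer cells of a type and less RNA per cell cannot be told apart either. The study calls its replicates biological, the labels name no animals, and the p-values measure the spread between these samples. Whether that is the spread between animals is not known. Pairs of samples of a group were compared by chi-square per degree of freedom, which grows as they differ beyond counting noise. It was 1.75 to 2.94 in C3H, whose labels give 3 days. Same-day pairs gave 1.72 to 3.5 in Pde6b rd1, 2.39 to 6.37 in Pde6b rd10 and 5.43 to 10.9 in Prph rd2.

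Cytokines of this family are secreted proteins that bring receptor chains together at the cell surface. All of them use gp130, the product of Il6st, and LIF and CNTF add the LIF receptor, CNTF after binding its own alpha receptor, Cntfr. JAK kinases attached to these receptors phosphorylate STAT3, which enters the nucleus, and SOCS3 is made in turn and blocks the receptor and kinase. In the injured retina, LIF is known as a signal from Müller glia that protects photoreceptors, and injected CNTF has long been used to slow photoreceptor loss.

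In Pde6b rd10 retinas, 6 of the 9 genes that could be tested were higher than in C3H and none was lower. These were Lif, Clcf1, Osmr, Il6st, Stat3 and Socs3, from 1.8-fold for Il6st to 33.1-fold for Lif. A gene was called where edgeR's quasi-likelihood test gave an unadjusted p under 0.05 and the fold change was at least 1.5. Of all genes tested, 15.9% were called higher and 8.08% lower in the same comparison. Lif passed the filter on low counts in this pair through its Pde6b rd10 reads alone, and over the 8 members tested against C3H in all 3 models, 5 were higher with a median log2 fold change of 1.24. In Pde6b rd1 and in Prph rd2, edgeR called no member among the 8 tested and DESeq2 called 0 as well. The unadjusted edgeR p was under 0.05 for 4 members in the former and for 2 in the latter, with smaller folds. Of all genes, 8.98% were called higher and 6.03% lower in the first of these comparisons, and 2.68% and 1.89% in the second. The median log2 fold change of the tested members was 1.63 for Pde6b rd10 (0.00 over all tested genes), -0.11 for Pde6b rd1 (-0.01 over all) and 0.06 for Prph rd2 (0.00 over all). The 3 comparisons share the same C3H samples, so their values stand side by side and are not independent of each other.

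**Figure D1:**
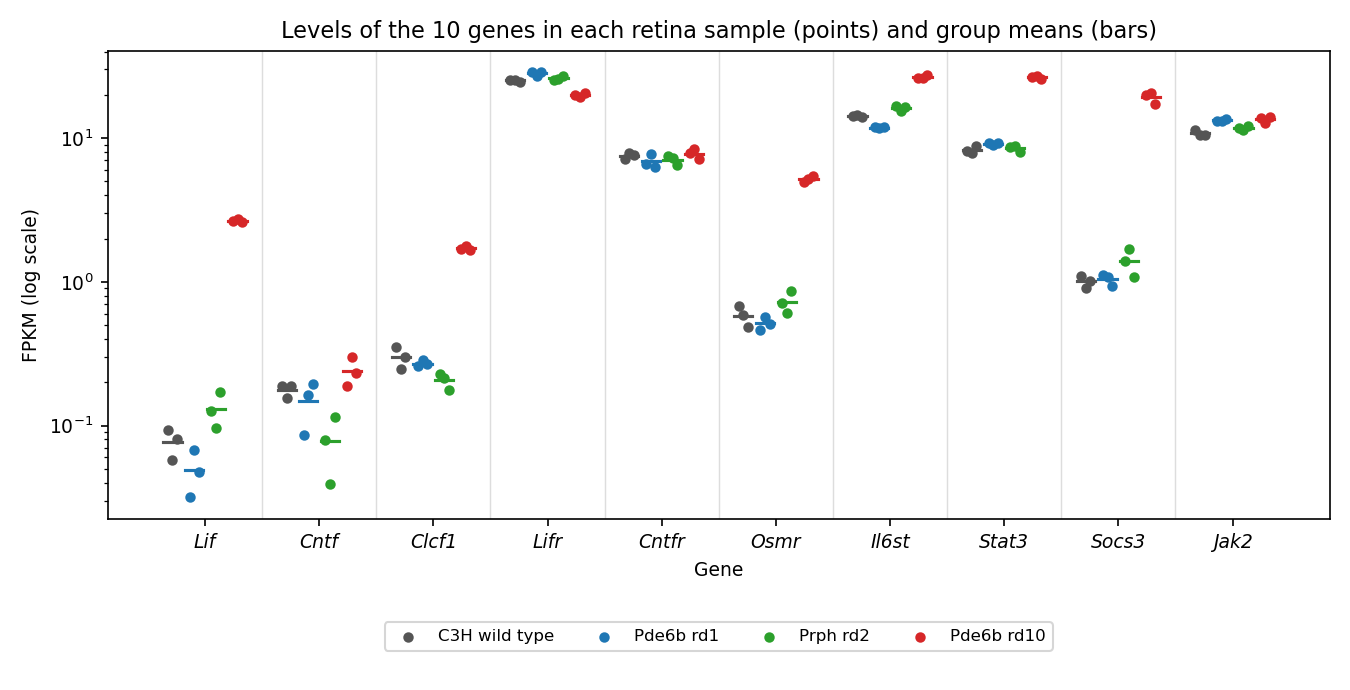
FPKM (log scale) of the 10 genes in each of the 12 retina samples, coloured by group, with bars at the group means of 3 samples. The Pde6b rd10 points lie above all other samples for Lif, Clcf1, Osmr, Il6st, Stat3 and Socs3, below all others for Lifr, and among the others for Cntf, Cntfr and Jak2.

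The order of the genes by level differed between groups. In C3H, the receptor Lifr was the most abundant member, at 25.2 ± 0.419 FPKM (SD, n = 3), followed by Il6st at 14.2 ± 0.152, Jak2 at 10.8 ± 0.461, Stat3 at 8.22 ± 0.488 and Cntfr at 7.55 ± 0.338. Of these neighbours, the samples of Stat3 and Cntfr overlapped. Below them stood Socs3 at 1.01 ± 0.0958, Osmr at 0.581 ± 0.0953 and the ligands Clcf1 at 0.299 ± 0.0531, Cntf at 0.177 ± 0.019 and Lif at 0.0771 ± 0.018. In Pde6b rd10, Il6st at 26.6 ± 0.698 and Stat3 at 26.5 ± 0.675 were first, and they did not differ beyond their spread. Lifr at 19.8 ± 0.633 and Socs3 at 19.2 ± 1.72 came next and overlapped as well. Pde6b rd1 and Prph rd2 kept Lifr first, at 28.2 ± 0.937 and 26.0 ± 0.781 FPKM.

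Lif, the leukemia inhibitory factor gene (chromosome 11, 4257557 to 4272514 on the plus strand, GRCm38), was close to the limit of detection outside Pde6b rd10. It was counted 8, 6 and 7 times in the C3H samples, 3, 5 and 4 times in Pde6b rd1, with 13, 10 and 18 times in Prph rd2. The Pde6b rd10 samples held 283, 223 and 225 reads, or 2.63, 2.74 and 2.59 FPKM, with no overlap with any other group. The log2 fold change against C3H was 5.05 ± 0.19 (SE; edgeR adjusted p = 5.43e-15). Outside Pde6b rd10 too few reads passed edgeR's filter on low counts for a test in the pair. The mean was 0.206 CPM in Pde6b rd1 against 0.342 in C3H (two-sided exact permutation test, p = 0.2). In Prph rd2 it was 0.581, and every Prph rd2 sample held more Lif than every C3H sample (exact permutation p = 0.1). With 3 samples against 3, 0.1 is the smallest p this test can give. When all 12 samples were fitted together, Lif passed the filter, but only through its Pde6b rd10 reads. There it was called higher in Prph rd2 than in C3H by 0.75 ± 0.33 on the log2 scale, with an unadjusted edgeR p of 0.045 that did not hold after adjustment (0.183). With no filter in the pair, the same difference had an unadjusted p of 0.115.

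The bases upstream of Lif are shown because this gene had the greatest fold of the members. RefSeq promoter windows were given for 9 of the 10 genes, all but Clcf1, and the 250 bases before the start site were searched on both strands for the palindromes TTCNNNGAA, to which STAT factors bind, and TGANTCA, to which AP-1 factors such as FOS and JUNB bind. The first was present in 7.02% of all 32851 windows and the second in 6.75%. The AP-1 letters were in the windows of 2 of the 9 members, Lif and Cntf, and the STAT letters were not in that of Lif. The stretch printed is chr11:4257318-4257556, plus strand, GRCm38.p6, which ends before the first annotated exon. Capitals mark the AP-1 letters at bases -228 to -222 from the RefSeq start site.

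Lif upstream: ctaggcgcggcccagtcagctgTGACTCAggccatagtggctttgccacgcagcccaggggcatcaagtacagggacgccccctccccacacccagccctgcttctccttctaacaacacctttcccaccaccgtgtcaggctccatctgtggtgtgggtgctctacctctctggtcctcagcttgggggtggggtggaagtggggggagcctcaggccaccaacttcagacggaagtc

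Clcf1 encodes a CNTF-like ligand that acts through the CNTF receptor (chromosome 19, 4214238 to 4223490, plus strand). Its counts were 26, 22 and 22 in C3H, 21, 18 and 19 in Pde6b rd1, with 20, 19 and 16 in Prph rd2. In Pde6b rd10 they were 156, 122 and 123, or 1.7, 1.76 and 1.66 FPKM, above every other sample. The log2 fold change against C3H was 2.46 ± 0.17 (SE; edgeR adjusted p = 1.53e-10). In Pde6b rd1 it was -0.22, with an interval of 1.96 standard errors on each side from -0.78 to 0.35. In Prph rd2 it was -0.56, with an interval from -1.13 to 0.02, so that a fall past 1.5-fold was neither shown nor bounded away. In GENCODE M21, Clcf1 overlaps AC109138.7 on the same strand, and reads of both genes may not have been separated.

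Cntf, the ciliary neurotrophic factor gene (chromosome 19, 12763660 to 12765632, minus strand), was the only member that was not tested in any comparison. Its counts were 4, 4 and 4 in C3H, 2, 3 and 4 in Pde6b rd1, 2, 1 and 3 in Prph rd2, and 5, 6 and 5 in Pde6b rd10. The Prph rd2 samples lay at or under 3 counts, the number taken as the floor of detection. On the CPM scale, Pde6b rd10 had 0.255 and C3H 0.194 (two-sided exact permutation test, p = 0.3), and Pde6b rd1 had 0.154 (exact permutation p = 0.2). Prph rd2 had 0.0851, below every C3H sample, and Pde6b rd10 lay above every Prph rd2 sample, each with an exact permutation p of 0.1, the smallest possible. Pde6b rd10 against Pde6b rd1 gave the same exact permutation p of 0.1, although the nearest samples of both groups stood at 0.202 CPM and their FPKM ranges overlapped. At so few counts no fold is given. Cntf lies inside Zfp91 on the same strand, so even these few reads may not be its own.

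The other ligands of the family stayed scarce. Of the 6 on the list, 2 passed the filter in Pde6b rd10 and 1 was called higher, Ctf1, which encodes cardiotrophin 1, at 1.31 ± 0.27 on the log2 scale (from 0.401 ± 0.0631 to 1.05 ± 0.219 FPKM). By edgeR, none was called in Pde6b rd1, where 2 were tested and 0 had an unadjusted p under 0.05, or in Prph rd2, where 3 were and 0 did. Osm, the oncostatin M ligand for the receptor encoded by Osmr, had 0 to 2 counts per sample in C3H and 4 to 13 in Pde6b rd10. Its mean there was at least 2.88-fold higher than the C3H floor of 3 counts per library. Il27, which encodes an interleukin subunit of this family, reached 4 to 12 counts in Pde6b rd10 and 0 to 1 in C3H, at least 2.28-fold higher than the floor. Il6 did not exceed 5 counts in any sample, and Il11 was counted 5 to 13 times in C3H and 5 to 11 times in Pde6b rd10.

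Among the receptor genes, those for the chains specific to LIF and CNTF were not called in any model. Lifr encodes the LIF receptor chain (chromosome 15, 7090614 to 7197489, plus strand). Its level was 25.3, 25.5 and 24.7 FPKM in C3H, 28.6, 27.1 and 28.8 in Pde6b rd1, 25.4, 25.7 and 26.9 in Prph rd2, and 19.8, 19.2 and 20.5 in Pde6b rd10. The Pde6b rd10 samples were below all others. The log2 difference from C3H was -0.40 ± 0.04 (SE; edgeR adjusted p = 1.41e-08), larger than the spread between replicates and smaller than the 1.5-fold required for a call. In Pde6b rd1 the log2 difference was 0.09 ± 0.03 (adjusted p = 0.0268) and in Prph rd2 0.01 ± 0.04.

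Cntfr encodes the CNTF alpha receptor, which is held to the membrane by a lipid anchor (chromosome 4, 41657498 to 41697089, minus strand). Its level was 7.17, 7.82 and 7.66 FPKM in C3H, 6.65, 7.74 and 6.33 in Pde6b rd1, 7.46, 7.21 and 6.45 in Prph rd2, and 7.84, 8.37 and 7.13 in Pde6b rd10. All 4 groups overlapped. The log2 difference from C3H in Pde6b rd10 was -0.01, with an interval from -0.16 to 0.14, which leaves out a change of 1.5-fold in either direction. In Pde6b rd1 the log2 difference was -0.21 ± 0.08 (adjusted p = 0.0302) and in Prph rd2 -0.13 ± 0.08 (adjusted p = 0.332).

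Osmr, the oncostatin M receptor gene (chromosome 15, 6813577 to 6874969, minus strand), behaved differently. Its level was 0.674, 0.587 and 0.483 FPKM in C3H, 0.465, 0.571 and 0.51 in Pde6b rd1, with 0.712, 0.611 and 0.858 in Prph rd2. In Pde6b rd10 it was 4.91, 5.21 and 5.42 FPKM, above every other sample. The log2 fold change against C3H was 3.10 ± 0.08 (SE; edgeR adjusted p = 2.32e-17), or 8.56-fold. The differences in Pde6b rd1, -0.26 ± 0.13 (adjusted p = 0.12), and in Prph rd2, 0.29 ± 0.14 (adjusted p = 0.242), did not pass the test.

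Il6st encodes gp130, the chain shared by the whole family (chromosome 13, 112464070 to 112510086, plus strand). It was at 14.2, 14.4 and 14.1 FPKM in C3H, 11.9, 11.7 and 11.9 in Pde6b rd1, 16.7, 15.5 and 16.5 in Prph rd2, and 26.2, 26.3 and 27.4 in Pde6b rd10. No samples of different groups overlapped. Its log2 fold change in Pde6b rd10 was 0.85 ± 0.04 (SE; edgeR adjusted p = 7.83e-14), the least of the 6 called. In Pde6b rd1 the log2 difference was negative, -0.34 ± 0.03 (adjusted p = 1.85e-08), beyond the spread between replicates and under 1.5-fold. In Prph rd2 it was 0.16 ± 0.05 (adjusted p = 0.0605). Markers of several cell types were also lower in Pde6b rd1, where 6.03% of all genes were called lower. Of 10 Müller glia markers, 4 were called lower there (Glul, Aqp4, Kcnj10 and Apoe) and none higher. Slc1a3 at 0.00, Sox9 at 0.05 and Vim at -0.02 on the log2 scale were not called. The list summed to between 2444.2 and 2498.0 CPM against 4039.7 to 4142.2 in C3H, with no marker at 0. Glul alone went from a mean of 1790.2 CPM in C3H to 618.6. Of 8 rod markers 5 were called lower, and of 4 pigment epithelium markers tested 3 were, with none higher in either list. Other lists did not fall. The astrocyte list summed to a mean of 72.1 CPM against 63.4 in C3H, without a call. The microglia and macrophage list was at 59.5 against 60.2, with Cd68 called higher at 0.93 and none lower. The part of these cells in the Il6st value was not tested.

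Other receptors of the family were tested for 3 of 4 genes in Pde6b rd10, where 2 were called higher and none lower. Il6ra, the alpha receptor for interleukin 6, stood at 0.574 ± 0.049 FPKM against 0.193 ± 0.0528 in C3H, a log2 fold change of 1.49 ± 0.19 (edgeR adjusted p = 8.31e-07). Il11ra1, the alpha receptor for interleukin 11, stood at 2.51 ± 0.333 against 1.57 ± 0.0595 (log2 fold change 0.63 ± 0.11). That call was at the edge of the fold and was lost without Pde6b rd10 replicate 1 (0.55). In Pde6b rd1, Il6ra was called lower at -0.60 ± 0.28, with an adjusted p of 0.0897. The call was lost without C3H replicate 2 (-0.38), without C3H replicate 3 (-0.61) and without Pde6b rd1 replicate 2 (-0.43), by DESeq2 (-0.61) and against the C3H sample of day 13 alone (-0.13).

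**Figure D2:**
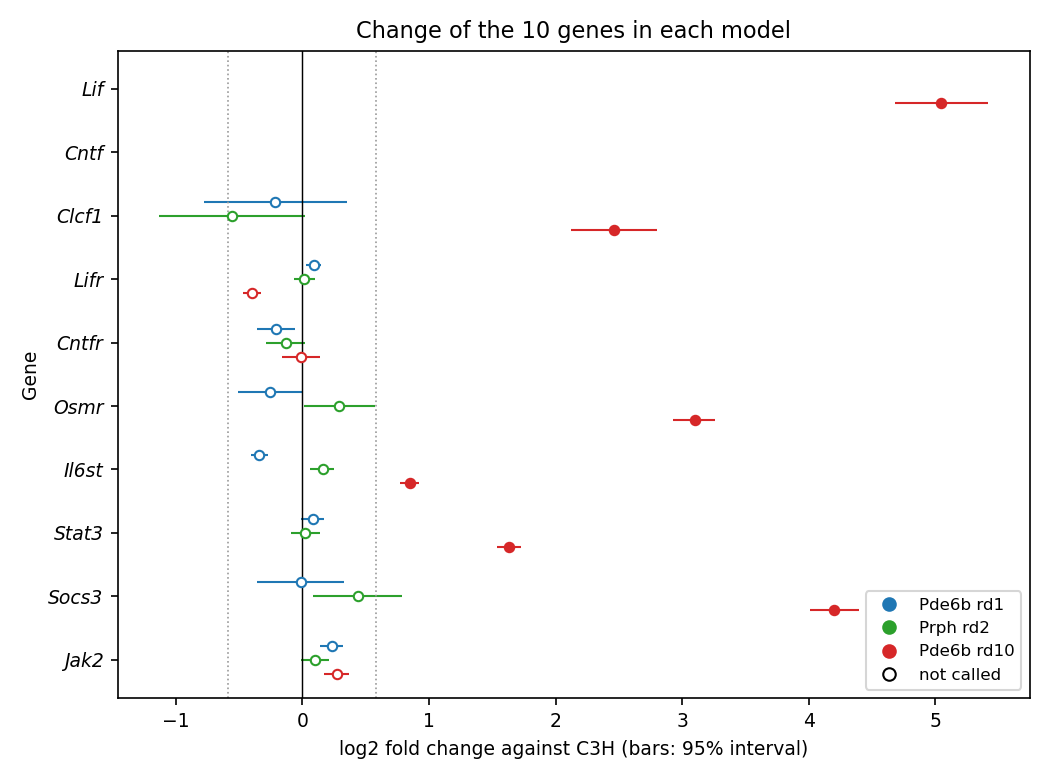
Fitted log2 fold change against C3H (x axis) of each gene (y axis) in the 3 models, with bars of 1.96 standard errors. Filled points were called at an unadjusted p under 0.05 and at least 1.5-fold (dotted lines), open points were not, and a missing point means that the gene was not tested. All 6 filled points belong to Pde6b rd10, from 0.85 for Il6st to 5.05 for Lif.

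Jak2 encodes a tyrosine kinase attached to these receptors (chromosome 19, 29251828 to 29313080, plus strand). Its level was 11.3, 10.5 and 10.5 FPKM in C3H, 13.2, 13.2 and 13.5 in Pde6b rd1, 11.8, 11.3 and 12.2 in Prph rd2, and 13.7, 12.8 and 14.0 in Pde6b rd10. Pde6b rd1 and Pde6b rd10 lay above C3H without overlap. The log2 difference from C3H was 0.23 ± 0.05 in Pde6b rd1 (SE; edgeR adjusted p = 2.08e-04) and 0.27 ± 0.05 in Pde6b rd10 (adjusted p = 1.87e-04), both under 1.5-fold. In Prph rd2 it was 0.10 ± 0.06 (adjusted p = 0.331).

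Stat3 encodes the transcription factor activated by gp130 (chromosome 11, 100885098 to 100939540, minus strand). Its level was 8.09, 7.81 and 8.76 FPKM in C3H, 9.19, 8.99 and 9.23 in Pde6b rd1, with 8.72, 8.87 and 8.05 in Prph rd2. In Pde6b rd10 it was 26.5, 27.2 and 25.8 FPKM, above every other sample. The log2 fold change against C3H was 1.63 ± 0.05 (SE; edgeR adjusted p = 5.51e-17), or 3.1-fold. In Pde6b rd1 it was 0.08 ± 0.05 (adjusted p = 0.154) and in Prph rd2 0.02 ± 0.06 (adjusted p = 0.852), with intervals from -0.01 to 0.17 and from -0.09 to 0.14. The 3′ end of Stat3 overlaps Stat5a on the opposite strand, and the strand setting of the counting is not given in the sources used here. Stat5a itself had a log2 difference of 0.13 in Pde6b rd10 and was not called. These are RNA levels, and the phosphorylation by which STAT3 is activated was not measured.

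Socs3 encodes the feedback inhibitor of gp130 signalling and is itself a STAT3 target (chromosome 11, 117966079 to 117970047, minus strand). Its level was 1.1, 0.906 and 1.01 FPKM in C3H, 1.12, 1.08 and 0.934 in Pde6b rd1, with 1.39, 1.69 and 1.08 in Prph rd2. In Pde6b rd10 it was 19.8, 20.5 and 17.2 FPKM, above every other sample. The log2 fold change against C3H was 4.20 ± 0.10 (SE; edgeR adjusted p = 2.83e-18), or 18.4-fold, the second greatest among the members after Lif. In Pde6b rd1 it was -0.01 ± 0.18, and in Prph rd2 0.44 ± 0.18 with an unadjusted p of 0.0308 that did not hold after adjustment (0.158).

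Socs3 was the only member of the 9 matched whose upstream window held the STAT letters TTCNNNGAA, and its bases are shown for that reason. The stretch is chr11:117969452-117969616, minus strand, GRCm38.p6, and stops where a non-coding transcript of the gene has an exon in GENCODE M21. It lies upstream of the RefSeq start site but inside the gene as annotated, whose 5′ end is at 117970047. Capitals mark the STAT letters at bases -154 to -146 from the RefSeq start site. A match of letters is a description and does not show that STAT3 was bound there.

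Socs3 upstream: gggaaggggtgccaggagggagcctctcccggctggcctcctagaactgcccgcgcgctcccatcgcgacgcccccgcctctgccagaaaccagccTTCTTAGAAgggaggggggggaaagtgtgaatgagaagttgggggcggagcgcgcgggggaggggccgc

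The other JAK and STAT genes were called selectively. Of the 7 tested, Pde6b rd10 had 3 higher and none lower: Jak3 at 2.42 ± 0.11, Stat6 at 1.13 ± 0.10 and Stat2 at 0.88 ± 0.05 on the log2 scale. STAT2 carries interferon signals, and JAK3 serves interleukin receptors of immune cells. Jak3 went from 0.642 ± 0.0574 FPKM in C3H to 3.57 ± 0.312. Jak1, the most abundant JAK of the list at 25.9 ± 0.237 FPKM in C3H, stood at 24.7 ± 0.823 in Pde6b rd10, a log2 difference of -0.12 ± 0.04. The median over the 7 genes was 0.13 for Pde6b rd10, -0.18 for Pde6b rd1 and 0.04 for Prph rd2. Neither of the other models had a call, although 4 of 7 in Pde6b rd1 had an adjusted p under 0.05 with a negative sign, Stat5b at -0.51 ± 0.04 among them.

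All 13 other negative regulators on the list were tested, and Pde6b rd10 had 2 of them higher and 1 lower, close to the shares over all genes of 15.9% and 8.08%. Ptpn6, a phosphatase of blood cells, had a log2 fold change of 2.08 ± 0.22 and Socs1, the SOCS gene of interferon signalling, 1.33 ± 0.24. Pias3, whose product binds STAT3 and holds it off DNA, was lower at -1.04 ± 0.04. Socs2 was at 3.14 ± 0.151 FPKM against 2.43 ± 0.136 in C3H and missed the fold. The list's median was -0.03 for Pde6b rd10, -0.02 for Pde6b rd1 and -0.06 for Prph rd2, and neither edgeR nor DESeq2 called any in the last 2 models, where 5 and 4 had an unadjusted p under 0.05.

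**Figure D3:**
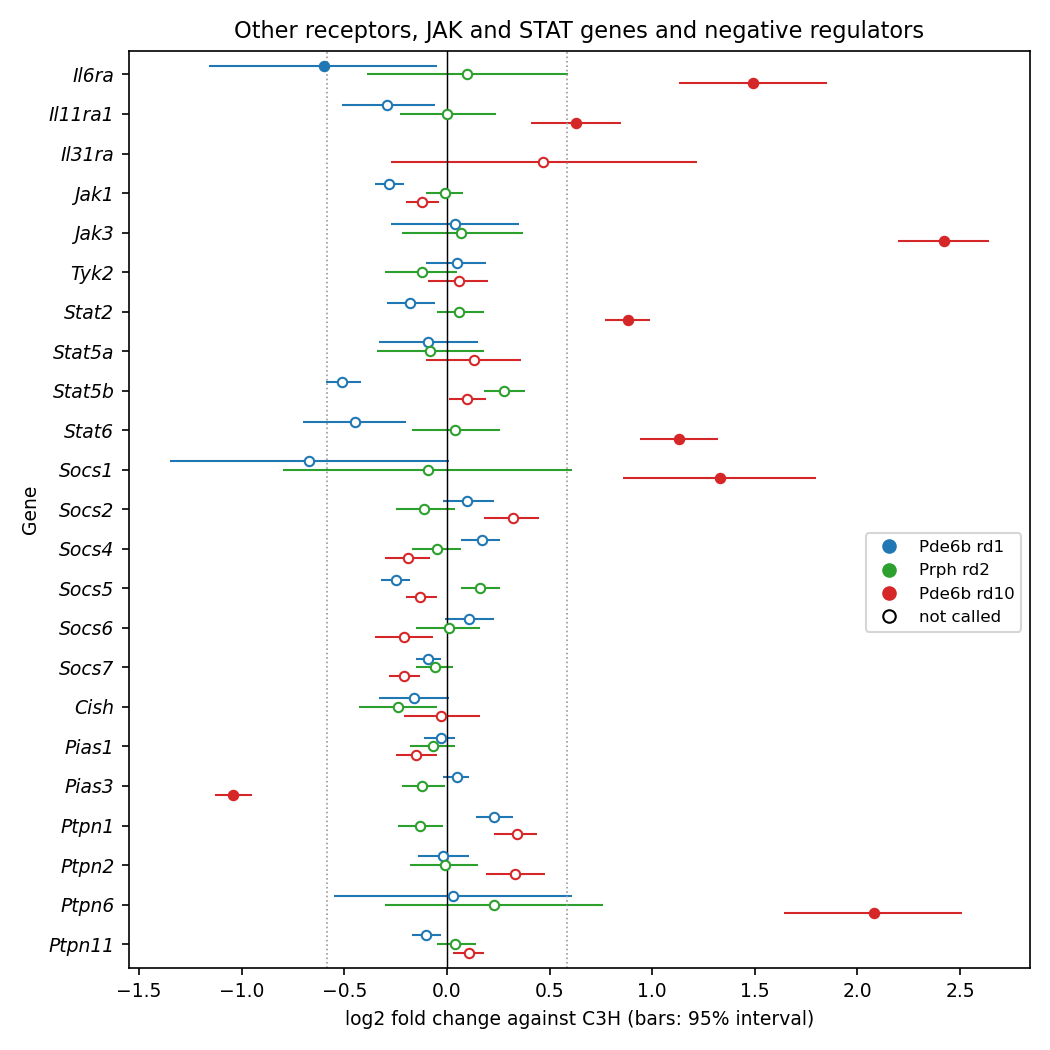
Fitted log2 fold change against C3H (x axis, with bars of 1.96 standard errors) of the other receptors, JAK and STAT genes and negative regulators (y axis) that were tested, by model. Filled points were called and dotted lines mark 1.5-fold. The Pde6b rd10 points of Jak3 at 2.42 and Ptpn6 at 2.08 lie farthest to the right, and Pias3 at -1.04 to the left.

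Genes that STAT3 is known to induce in glia, liver or other cells were followed as a list of 20. The list was chosen with earlier results of these data known. In Pde6b rd10 all 20 were tested, and 15 were called higher and none lower, with a median log2 fold change of 2.84 against 0.00 over all genes. Of all genes tested, 15.9% were called higher and 8.08% lower. Fos was at the edge of the fold, at 0.59 ± 0.06. Over the 16 that were tested in all 3 models, 11 were higher, with a median of 1.67. The acute phase gene Serpina3n went from 0.865 ± 0.44 to 72.9 ± 2.17 FPKM, a log2 fold change of 6.36 ± 0.11. Gfap, the intermediate filament of reactive glia, went from 8.73 ± 0.249 to 82.9 ± 3.86 FPKM (3.19 ± 0.05). Lcn2, an iron-carrying secreted protein, went from 0.45 ± 0.0955 to 26.2 ± 0.719 FPKM (5.82 ± 0.10), and Bcl3, a regulator of NF-kB, from 0.247 ± 0.0412 to 11.3 ± 0.702 (5.44 ± 0.14). Timp1, a protease inhibitor, had a log2 fold change of 5.62 ± 0.25 on 1 to 6 counts per C3H sample. Steap4, a metal reductase of the same response, had 5.32 ± 0.18 on 6 to 13 counts per C3H sample. Lrg1, an acute phase glycoprotein, had at most 2 counts in C3H and 37 to 56 in Pde6b rd10, at least 15.2-fold higher than the floor. Timp1, Steap4 and Lrg1 passed the filter through their Pde6b rd10 reads and were not tested against C3H in the other models. Bcl3 was not tested in Pde6b rd1.

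In the other models the same list gave few calls in both directions. In Pde6b rd1, 2 of 16 tested were higher, Fos at 1.11 ± 0.05 and Ccnd1 at 0.75 ± 0.06, and Serpina3n was lower at -1.05 ± 0.34, a call lost without C3H replicate 3 (-0.57) and against the C3H sample of day 13 alone (-0.43). In Prph rd2, 1 of 17 was lower and none higher, Fos at -1.45 ± 0.07. The count of lower genes in Prph rd2 became 2 without C3H replicate 1 and 3 without Prph rd2 replicate 2, and 1 was higher without Prph rd2 replicate 3. The medians were -0.03 and -0.04. Fos, an immediate early gene whose product is part of AP-1, stood at 13.6 ± 0.31 FPKM in C3H and 5.11 ± 0.312 in Prph rd2, with 31.0 ± 1.84 in Pde6b rd1 and 21.4 ± 1.27 in Pde6b rd10. Gfap was at 9.46 ± 0.29 FPKM in Pde6b rd1 and 7.71 ± 0.475 in Prph rd2, without a call.

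**Figure D4:**
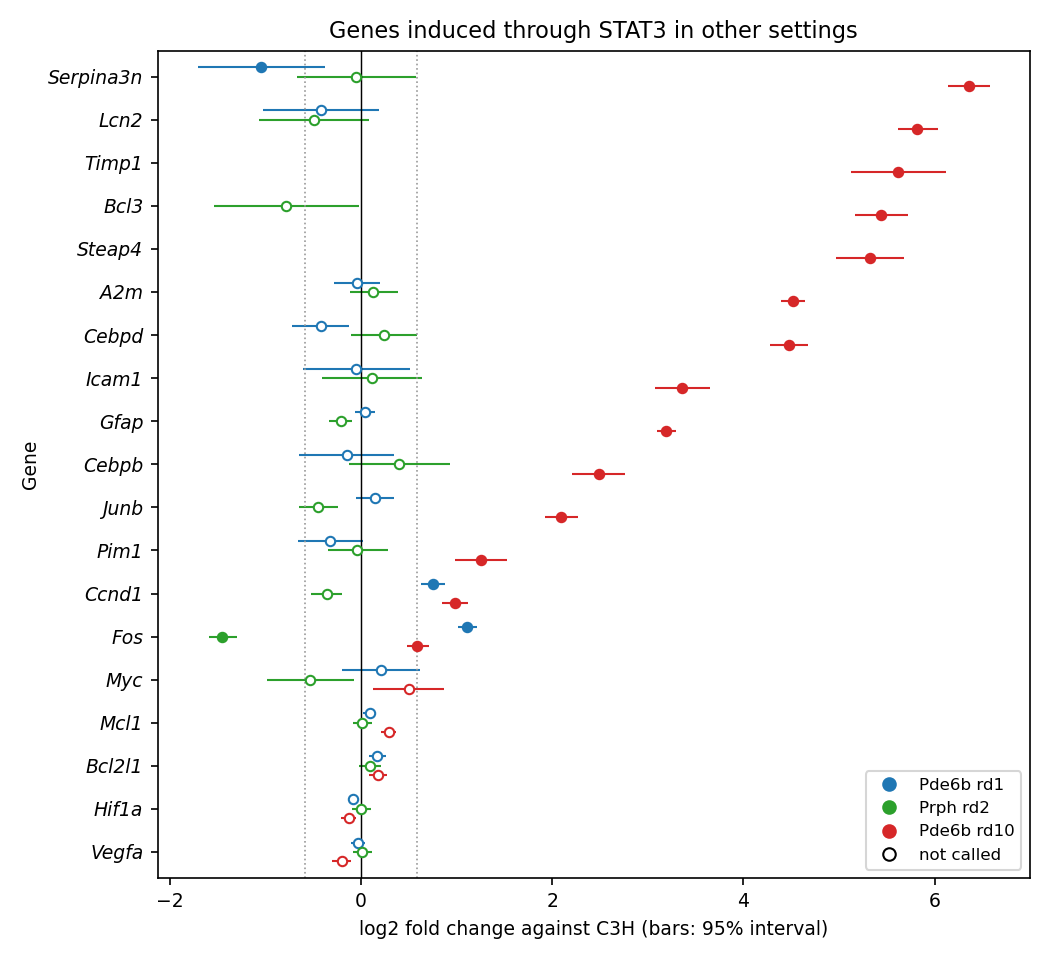
Fitted log2 fold change against C3H (x axis, with bars of 1.96 standard errors) of 19 genes that STAT3 induces in other settings (y axis, ordered by Pde6b rd10), by model. Lrg1 is left out because C3H was under the floor, filled points were called and dotted lines mark 1.5-fold. Pde6b rd10 runs from 6.36 for Serpina3n to under 0 for Vegfa and Hif1a, while the other models lie around 0 for most genes.

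Stress factors of photoreceptors and the receptor gene Ednrb, a list chosen with earlier results of these data known, stood beside these changes. In Pde6b rd10, 3 of 3 were called higher, against 15.9% of all genes tested. Edn2 passed the filter there through its Pde6b rd10 reads, and over the 2 genes tested in all 3 models both were higher, with a median of 2.63. Edn2, an endothelin that injured photoreceptors release, went from 0.118 ± 0.052 to 24.7 ± 1.49 FPKM, a log2 fold change of 7.60 ± 0.17, on 2 to 5 counts per C3H sample. Fgf2 went from 1.59 ± 0.186 to 40.5 ± 2.18 FPKM (4.62 ± 0.07). Ednrb, the endothelin receptor of Müller glia, had 0.63 ± 0.08, a call lost without C3H replicate 1 (0.58). The other models, in each of which 2 were tested, had no call, and Edn2 was at 0.19 ± 0.0296 and 0.162 ± 0.015 FPKM there.

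Markers of retinal and other cells were read in Pde6b rd10 as well. Of 10 microglia and macrophage markers, 9 were called higher, all but P2ry12, and the list summed to between 185.2 and 198.9 CPM against 57.9 to 62.3 in C3H, 56.7 to 61.2 in Pde6b rd1 and 52.0 to 53.9 in Prph rd2. Of 10 Müller glia markers, 2 were higher (Apoe at 1.28 and Vim at 0.76) and 1 was lower (Slc1a3 at -0.76), with a sum of 3893.4 to 4084.9 CPM. That is close to the shares over all genes of 15.9% higher and 8.08% lower. No microglia or Müller marker was at or under the floor in C3H or Pde6b rd10. Of 8 rod markers, 4 were lower and none higher, Nr2e3 at -1.25, Sag at -0.93, Gngt1 at -0.88 and Nrl at -0.87, with a median of -0.72. Among 4 astrocyte markers, Aldh1l1 was higher at 1.30. S100b at -0.36, Pdgfra at -0.20 and Pax2 at -0.11 were not called, and the median was -0.16. Among 4 pigment epithelium markers tested, Tyrp1 was higher at 1.11. Rpe65 at -0.47, Lrat at -0.26 and Ttr at 0.07 were not called, and the median was -0.09. Of 3 lens markers tested, Cryba1 at 1.65 and Cryaa at 1.30 were higher and Bfsp1 at -1.12 was lower, and the lens list summed to between 4.29 and 4.84 CPM against 2.63 to 2.86 in C3H. Cryba1 had 4 to 8 counts per C3H sample and passed the filter through its Pde6b rd10 reads. Of 6 vessel markers, Kdr was lower at -0.60, a call lost with unscaled totals (-0.54). The part of these cells in the values of the 6 called members was not tested.

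Pde6b rd10 also differed from the other models directly, by contrasts in the fit of all 12 samples. The same 6 members were called higher than in Pde6b rd1 and higher than in Prph rd2, and none was lower. Lif, counted among the 6, passed the filter of this fit only through its Pde6b rd10 reads. Of all genes, 17.6% were called higher and 11.2% lower in the first contrast, and 13.5% and 6.16% in the second. Against Pde6b rd1, the log2 differences were 5.81 ± 0.23 for Lif, 4.24 ± 0.12 for Socs3, 3.38 ± 0.11 for Osmr, 2.70 ± 0.18 for Clcf1, 1.58 ± 0.05 for Stat3 and 1.21 ± 0.04 for Il6st. Against Prph rd2, they were 4.30 ± 0.18 for Lif, 3.77 ± 0.11 for Socs3, 3.02 ± 0.18 for Clcf1, 2.81 ± 0.10 for Osmr, 1.61 ± 0.05 for Stat3 and 0.69 ± 0.04 for Il6st. Lifr was below both, by -0.46 ± 0.04 and -0.41 ± 0.04, without reaching the fold. Jak2 did not differ beyond its error from Pde6b rd1, with 0.06 and an interval from -0.04 to 0.16.

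Pde6b rd1 and Prph rd2 differed from each other in 1 called member. Lif was lower in Pde6b rd1, at -1.5 ± 0.38 on the log2 scale (edgeR adjusted p = 0.00349), on 3 to 5 counts against 10 to 18. It passed the filter of the fit of 12 samples through its Pde6b rd10 reads, and with only the 6 samples of these 2 models it was filtered out and not tested. Of all genes, 8.66% were called higher and 8.21% lower in Pde6b rd1. Il6st at -0.52 ± 0.04 (adjusted p = 5.04e-09), Osmr at -0.57 ± 0.13 (adjusted p = 0.00162) and Socs3 at -0.47 ± 0.16 (adjusted p = 0.0268) were also lower by their fitted values and under 1.5-fold. Osmr passed the fold without Pde6b rd1 replicate 2 (-0.64) or Prph rd2 replicate 2 (-0.69), and Socs3 without Prph rd2 replicate 3 (-0.62), which moved the count of members called lower from 1 to 2 each time.

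Circular RNAs, read through back-splice junctions, were listed for 5 of the 10 genes, as 9 circles with 63 junction reads of 214352 in all samples. Most came from Lifr: the circle at chr15:7172855-7173560 (plus strand, mm10, as deposited) had 8 junction reads over the C3H samples, 7 in Pde6b rd1, 2 in Prph rd2 and 11 in Pde6b rd10. A circle of Osmr at chr15:6836915-6842917 had 0 reads in C3H and Pde6b rd1, 2 in Prph rd2 and 7 in Pde6b rd10, where the samples had 2, 0 and 5. A circle of Jak2 at chr19:29283541-29296648 had 3, 0, 2 and 5 reads in the same group order. These counts are too few for a comparison between groups.

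The genes whose levels ran most like the members' over the 12 samples were named by Pearson's r of log2(CPM + 1), a description in which the points share group, strain and sex. For Lif they were Ifit1, Ifi27l2a and Tnnt2 (r = 0.997 each), and for Osmr Gbp2 (0.997), Lif (0.996) and Ifit2 (0.996). For Stat3 they were Sned1, Lad1 and the complement gene C3 (0.998 each), for Socs3 Eps8l1, Tnfrsf8 and H2-K2 (0.996 to 0.997), and for Il6st Osbpl6, Arsb and Gm37583 (0.996 to 0.998). Clcf1 ran with Serpina3i, Rps2 and Col18a1 (0.995 to 0.996), Lifr with Suv39h2, Copb1 and Atad2b (0.988 to 0.990), Jak2 with Gm43009, Nfat5 and Arid5b (0.976 to 0.984), and Cntfr with Porcn, Nr1h2 and 5033430I15Rik (0.948 to 0.953). Lif and Osmr were the only pair of members in which 1 was among the 3 most like the other.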

How the data were processed

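RNA-seq of rRNA-depleted, directional libraries was made from 12 mouse retina samples, grouped by label. The deposited counts are whole reads per gene that the authors aligned to GRCm38 (HISAT2, per the labels) and counted with HTSeq 0.11.2. For the deposited FPKM, the authors divided each count by the gene's length and the sample's total. The circRNA junction counts came from TopHat2 2.1.1 and CIRCexplorer, per the authors, and their TPM columns were not used.

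Each model was compared with C3H in edgeR 4.0.16 (R 4.3.3): TMM normalization, filterByExpr and the quasi-likelihood test, with Benjamini-Hochberg adjustment over all tested genes. Models were compared with each other in a fit of 12 samples. Calls needed an unadjusted p under 0.05 and 1.5-fold, as in the methods of the study. Steps were tested on simulated data. Intervals and the floor of 3 counts cover counting error or sample spread only. Named were all 10 members, up to 6 called genes of each other list with the largest change against C3H (and, beyond this rule and chosen after their values were seen, other listed genes given as values), the 3 genes most correlated with each member, and up to 3 circRNAs per member. Some genes of the lists are not reported here. The members and lists were chosen with earlier results of these data known. Tried besides were other scalings, DESeq2 1.42.0, limma 3.58.1 on log2(FPKM + 1) and log2(FPKM + 0.1), no filter, adjusted p alone, a replicate block, other sample sets and each replicate left out.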

Additional observations from a re-analysis of the deposited data

Results flagged for a closer look

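The change from C3H differed between Pde6b rd10 and Pde6b rd1 for 6 members, by the contrast of both models in edgeR's fit of all 12 samples. Lif, counted among the 6, passed the filter of that fit only through its Pde6b rd10 reads. The log2 difference was 5.81 for Lif, 4.24 for Socs3, 3.38 for Osmr, 2.70 for Clcf1, 1.58 for Stat3 and 1.21 for Il6st, and each was higher in Pde6b rd10 in 3 of 3 samples. A signal outside the gene counts was the circRNA of Osmr, with 7 junction reads in Pde6b rd10 and 0 in C3H. It came from 2 of 3 samples and has no test. Groups of 3 were too small for a search for outlying samples.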

How the results depend on the processing

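The 6 calls of Pde6b rd10 against C3H, Pde6b rd1 and Prph rd2 held under every alternative, with log2 fold changes against C3H from 1.76 to 5.45 for Lif, 1.06 to 2.73 for Clcf1, 1.97 to 3.21 for Osmr, 0.83 to 0.90 for Il6st, 1.58 to 1.71 for Stat3 and 3.33 to 4.35 for Socs3. The lowest of Lif, Clcf1, Osmr and Socs3 came from limma on log2(FPKM + 1), whose pseudocount shrinks low genes by construction. With an adjusted p under 0.05 and no fold as threshold, 2 members were called higher and 2 lower in Pde6b rd1 than in C3H, 7 higher and 1 lower in Pde6b rd10 than in C3H, in Pde6b rd1 and in Prph rd2 (Lifr was lower each time), and 4 lower in Pde6b rd1 than in Prph rd2. Members lower in Pde6b rd1 than in Prph rd2 were 0 by limma on log2(FPKM + 1), 0 with only the 6 samples of both models, where Lif was filtered out, and 1 to 2 with a replicate left out. In 1 fit of all 12 samples, 1 member, Lif, was higher in Prph rd2 than in C3H, having passed the filter through its Pde6b rd10 reads. No result reversed while called. Over single genes and the other lists, 2857 values kept their side of the threshold, 43 lost a call, 16 gained one and 96 changed sign without a call or, for counts, moved by over 1.5 times. Over all genes, the same 2 settings moved every count by over 1.5 times, for example from 2968 higher in Pde6b rd10 to 5188 (adjusted p) and 1421 (limma), and in Prph rd2 from 352 lower to 567 without the filter and 761 without Prph rd2 replicate 2. Replicate numbers are in the labels but same-numbered samples did not all deviate together (r from -0.126 to 0.383). Between models, the mean r of same-numbered samples was 0.115 for Pde6b rd10 and Pde6b rd1 and 0.223 for Pde6b rd10 and Prph rd2. For Pde6b rd1 and Prph rd2 it was 0.205. The samples of replicate 1 went the other way in the first of these pairs (-0.0387) and in the last (-0.0972). Samples of different numbers had a mean r of -0.0582, -0.111 and -0.105 in the same order. Deviations were taken from group means of 3 samples. A positive mean for equal numbers therefore brings a negative mean for different numbers, and the contrast adds no evidence. The replicate block changed no member's call: it gave 6 higher and 0 lower in Pde6b rd10. With the low-count genes Cntf and Lif, depth limits what can be seen.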
